A study of Mus musculus with 18 samples.

Results

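B cells from Peyer's patches, which are lymphoid tissue set in the wall of the small intestine, were compared between OVA-sensitized mice given intravenous soluble OVA and OVA-sensitized mice given PBS. All libraries titled as Peyer's patch B cells of those treatments entered, 3 per group, which is 6 of the 18 bulk RNA-Seq libraries of the series. The mice were female BALB/cJ, 10 to 12 weeks old when sampled, and both groups had been sensitized intraperitoneally to chicken ovalbumin (OVA) with 20 µg OVA on 1 mg alum on days 0 and 14, so the PBS control was an allergic mouse and not a naive one. On days 28 and 42 they received either 100 µg of solubilized OVA or 100 µL of PBS, and on day 44, before any oral challenge, B cells were taken from collagenase-digested patches with a magnetic kit that removes other cells. The remaining libraries were Peyer's patch B cells of mice given OVA nanoparticles (NP), and splenic B cells of the same 3 treatments. The labels do not say whether a replicate was 1 mouse or a pool, so p-values measure only the spread between these libraries.

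Peyer's patches hold germinal centers at all times, driven by gut microbes and food antigens. In a germinal center, B cells divide and mutate their antigen receptor genes in the dark zone, and then test the new receptor in the light zone, where receptor and T cell signals switch on activation genes. Outside it lie resting follicular B cells, which carry IgM and IgD and recirculate through blood and lymph, and class switching in the patches classically yields IgA. The comparison asks what free allergen in the circulation did to this mixture in animals that already had an allergic response.

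Total expected counts per library were 24274297 to 30052297 with soluble OVA and 14177253 to 24385914 with PBS, the lowest being PBS replicate 2, whose library number (19) also lay outside the run of the other Peyer's patch PBS libraries (10 and 12). Genes with 3 or more counts numbered 18530 to 18719 with soluble OVA and 17817 to 20117 with PBS. Mitochondrially encoded transcripts took 5.50 ± 0.526% of counts with soluble OVA and 6.61 ± 1.13% with PBS (mean ± SD, n = 3, exact two-sided permutation p = 0.3). The summed level of olfactory and vomeronasal receptor genes, which B cells normally keep silent (a list added after the data were seen), was 24.4, 23.2 and 31.5 CPM (counts scaled to a library total of 1e6 and used for all levels here) with soluble OVA against 73.1, 67.9 and 134.6 CPM with PBS (exact two-sided permutation p = 0.1, the smallest possible for 3 against 3). Low-level RNA of this kind was higher in every PBS library, and its part in the lower calls was not tested. *Ms4a1* of B cells lay far above *Cd3e* of T cells in every library, but these genes alone do not show how pure the isolates were. Absorptive epithelial markers summed to 527 to 3066 CPM in the same libraries, and other B cell identity genes are given below. *Ms4a1*, encoding CD20, lay at 1028, 1162 and 960.0 CPM in PBS replicates 1 to 3 and 1122, 1039 and 1104 CPM in soluble OVA replicates 1 to 3 (the order used throughout), and *Cd3e* of T cells at 3.12, 1.83 and 3.48 CPM and 2.03, 0.94 and 1.57 CPM.

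Of 15792 genes tested with edgeR's quasi-likelihood test, 4320 (27.4%) were called as differentially expressed (DEGs) by the study's cutoffs, a Benjamini-Hochberg adjusted p under 0.05 with a log2 change of more than 0.25 in size. Higher calls with soluble OVA numbered 2131 (13.5% of genes tested) and lower calls 2189 (13.9%), and the libraries of the groups did not overlap for 7187 genes (45.5%). The median log2 fold change was −0.02 over all genes tested and 0.58 in absolute size over the DEGs. Changes of more than 1 on the log2 scale were more often decreases, 728 against 283 increases. The number of lower calls fell to 1461 without PBS replicate 3, to 1211 without soluble OVA replicate 2 and to 1253 without soluble OVA replicate 3, and stood at 1656 without PBS replicate 2. In a bulk sample, fewer cells of a type and less RNA per cell cannot be told apart, and this holds for every result here.

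Transcript levels of the antibody heavy chain classes moved in different directions. IgG2b transcripts, from *Ighg2b* (chr12:113302965-113307933, GRCm38, minus strand), were 81.7, 148 and 154 CPM in the PBS libraries and 1609, 1459 and 1292 CPM in the soluble OVA libraries. Every soluble OVA library lay far above every PBS library, a log2 fold change of 3.53 ± 0.29 (± SE, n = 3 per group, edgeR adjusted p = 0.000845). IgG1 transcripts, the class tied to alum-driven, IL-4-dependent responses, moved in the other direction. *Ighg1* (chr12:113325240-113330523) was 975, 750.5 and 892 CPM with PBS and 144, 195 and 176 CPM with soluble OVA, a log2 fold change of −2.32 ± 0.13 (edgeR adjusted p = 8.22e-05). The ranges were far apart for both genes. The 3 OVA NP libraries of the same tissue were at 193, 73.1 and 107 CPM for *Ighg2b* and 559, 919 and 900.0 CPM for *Ighg1*.

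*Igha*, the mucosal class, was 638, 379.9 and 584 CPM with PBS and 1320.4, 1199 and 1062 CPM with soluble OVA, higher in each soluble OVA library (1.18 ± 0.20 log2, edgeR adjusted p = 0.00724). The unswitched genes were lower. *Ighd* fell from 741, 933 and 864 CPM to 353, 257 and 289 CPM (−1.48 ± 0.13 log2, edgeR adjusted p = 0.000196), and *Ighm* from 2013, 2121 and 1914 CPM to 1445, 1362 and 1519.8 CPM (−0.47 ± 0.08 log2, edgeR adjusted p = 0.00238). IgM and IgD did not fall by like amounts, the log2 change of *Ighd* being the larger. *Ighg3* rose by 0.98 ± 0.26 on the log2 scale (edgeR adjusted p = 0.0427), a call lost when PBS replicate 1, PBS replicate 2, soluble OVA replicate 2 or soluble OVA replicate 3 was left out. *Ighg2c* (1.47 ± 0.93 log2, edgeR adjusted p = 0.313) and *Ighe*, the allergic class, were not called, and *Ighe* stayed near 1 CPM in both groups (0.697, 1.13 and 0.935 CPM and 1.26, 0.827 and 1.15 CPM).

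As shares of all heavy chain constant counts, IgG2b went from 2.85 ± 0.918% with PBS to 30.5 ± 1.76% with soluble OVA (mean ± SD, n = 3). IgA went from 11.9 ± 2.92% to 25.1 ± 1.43%. The share of IgG1 went from 19.4 ± 2.304% to 3.64 ± 0.676%, that of IgD from 18.8 ± 2.38% to 6.29 ± 0.769%, and that of IgM from 44.9 ± 2.58% to 30.4 ± 2.75%. None of these 5 pairs of groups overlapped, and each gave an exact two-sided permutation p of 0.1, the smallest that 3 against 3 allows. The whole immunoglobulin share of the counts differed little, at 0.740 ± 0.0324% with soluble OVA and 0.700 ± 0.0217% with PBS (exact permutation p = 0.3). Among light chain constant counts, lambda made up 16.4 ± 0.487% with soluble OVA and 25.04 ± 0.893% with PBS (exact permutation p = 0.1). Constant region counts include germline transcripts that code for no antibody and do not count cells. Because GRCm38 is the genome of another strain, C57BL/6J, the split of reads among the closely similar IgG constant genes is uncertain. *Ighg2a* was not analysed here.

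**Figure D1:**
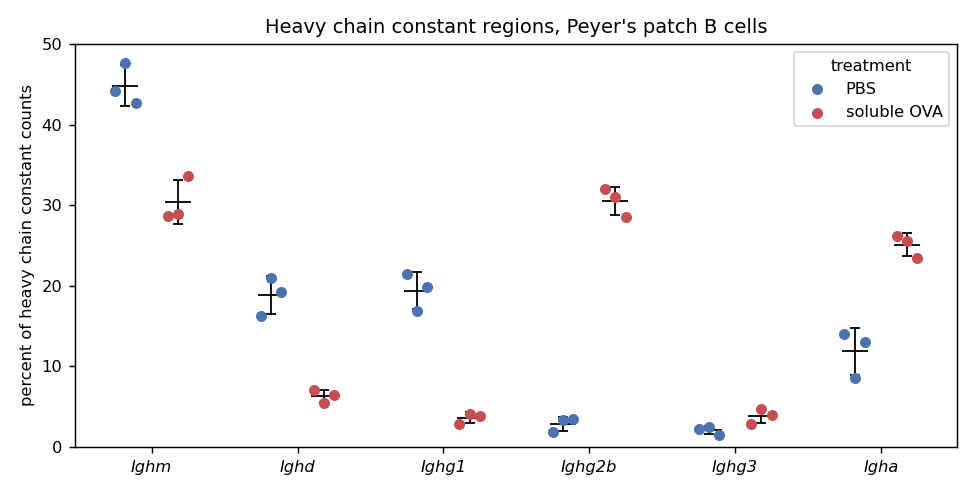
Share of each heavy chain constant gene (percent of all heavy chain constant counts) in single Peyer's patch libraries, blue for PBS and red for soluble OVA, with group mean and SD as black bars (n = 3). The IgG2b share is 30.5% with soluble OVA and 2.85% with PBS, while IgG1, IgD and IgM are lower with soluble OVA and IgA is higher.

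Genes of germinal center B cells were higher with soluble OVA. Of 15 listed, 14 were called higher and 0 lower, with a median log2 fold change of 0.66. *Bcl6* (chr16:23965052-23988852), the transcription factor that the germinal center state needs, was 209.8, 193 and 182 CPM with PBS and 319.8, 287 and 297 CPM with soluble OVA, and every soluble OVA library exceeded every PBS library (0.65 ± 0.08 log2, edgeR adjusted p = 0.000589). *Nuggc*, a nuclear GTPase of these cells, rose by 1.16 on the log2 scale, *Efnb1* by 1.05, *Mef2b* by 0.73 and *Fas* by 0.57 (edgeR adjusted p = 8.22e-05, 8.54e-05, 0.000222 and 0.00307). The receptor *S1pr2*, which holds B cells inside the germinal center, was 183, 168 and 164 CPM with PBS and 285, 253 and 259.8 CPM with soluble OVA (0.65 ± 0.08 log2, edgeR adjusted p = 0.000495). With any 1 library left out, 13 or 14 of the 15 were called higher. With all 18 libraries in the fit, 10 were called higher and the *S1pr2* call was lost.

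Genes of receptor mutation and repair were higher too. Of 18 genes of hypermutation and class switching, 13 were called higher and 0 lower (median log2 fold change 0.54), and the list shares members with the germinal center list. *Hmces*, which shields abasic sites in DNA, was 223, 202 and 192 CPM with PBS and 452, 436 and 410.4 CPM with soluble OVA (1.09 ± 0.08 log2, edgeR adjusted p = 8.54e-05). *Exo1*, the exonuclease of mismatch repair, rose by 1.201 on the log2 scale and *Rev1*, a translesion polymerase, by 0.67 (edgeR adjusted p = 0.000107 and 0.000133).

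Genes of naive follicular B cells fell. Of 14 listed, 13 were called lower and 0 higher, and the median log2 fold change was −1.47. *Fcer2a*, encoding the low-affinity IgE receptor CD23 (chr8:3681737-3694175), was 773, 848 and 890.2 CPM with PBS and 322, 233 and 259 CPM with soluble OVA (−1.61 ± 0.12 log2, edgeR adjusted p = 9e-05). *Zfp318*, which lets B cells make IgD from the IgM transcript, was 315, 400.4 and 354 CPM and 132, 115 and 136 CPM (−1.46 ± 0.10 log2, edgeR adjusted p = 8.22e-05). Both lay, in every soluble OVA library, far under the lowest PBS library. *Cd55*, a complement regulator, fell by 1.68 on the log2 scale and *Cd38* by 0.89 (edgeR adjusted p = 9.16e-05 and 0.000324). The chemokine receptor *Ccr7*, which draws B cells to the T cell zone, was 183, 316 and 216 CPM with PBS and 66.8, 37.1 and 32.6 CPM with soluble OVA (−2.37 ± 0.40 log2, edgeR adjusted p = 0.014), a call lost without soluble OVA replicate 2. Between 10 and 13 of the 14 were called lower with any 1 library left out.

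Marginal zone genes, of which 10 were listed, gave 8 lower calls and 0 higher (median −0.66 log2). *Cr2*, the complement receptor CD21 and a member of both lists, was 645, 771 and 671 CPM with PBS and 429, 406 and 429.8 CPM with soluble OVA (−0.70 ± 0.09 log2, edgeR adjusted p = 0.000494), *Notch2* fell by 1.12 on the log2 scale and *Cd1d1* by 1.01 (edgeR adjusted p = 0.000216 and 0.00326). The lower calls in this list numbered 5 without PBS replicate 1, soluble OVA replicate 2 or soluble OVA replicate 3. The genes that define any B cell moved less at the median, with 1 of 12 called higher and 4 lower (median −0.18 log2). Single members ran from −1.21 to 0.58 log2, and the lower calls made up 33.3% of the list, beside 13.9% of all genes tested. *Ms4a1* (0.07 ± 0.09 log2) and *Ptprc* (−0.19 ± 0.09) were not called (edgeR adjusted p = 0.609 and 0.155). *Cd22*, an inhibitory receptor, fell by 0.48 on the log2 scale, and *Pou2af1*, the coactivator OCA-B that germinal centers need, rose by 0.58 (edgeR adjusted p = 0.00228 and 0.000495). Lower calls in the B cell list numbered 2 without PBS replicate 2, PBS replicate 3, soluble OVA replicate 2 or soluble OVA replicate 3.

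**Figure D2:**
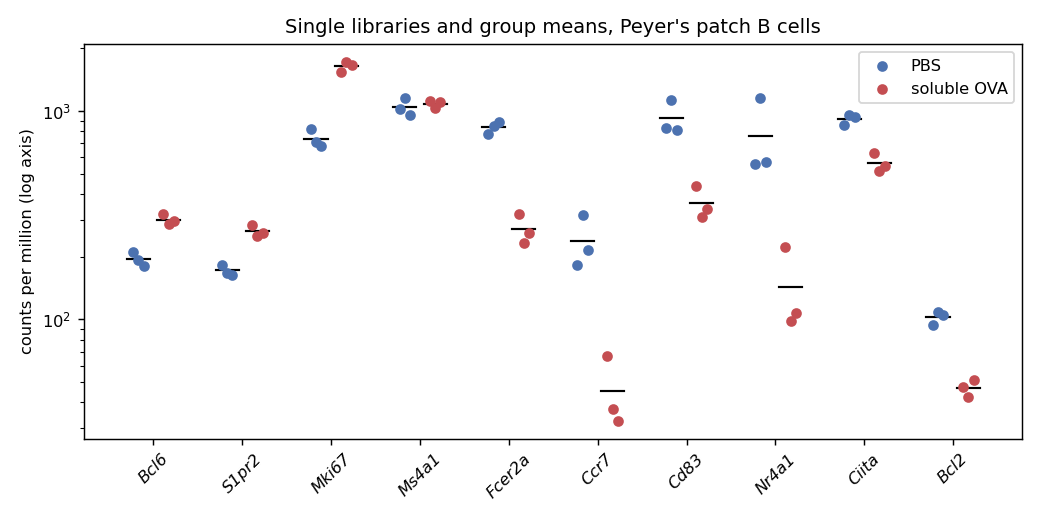
CPM (log axis) of 10 genes in single Peyer's patch libraries, blue for PBS and red for soluble OVA, with the group mean as a black line (n = 3). *Bcl6*, *S1pr2* and *Mki67* lie higher with soluble OVA, *Ms4a1* overlaps, and the remaining 6 lie lower.

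Cell division genes rose as a block. All 26 listed mitosis genes were called higher (median 1.11 log2), as were 25 of 27 genes of S phase and DNA replication (median 0.89 log2), with 0 lower in either list. *Mki67*, the proliferation marker Ki-67 (chr7:135689784-135716361), was 825, 711 and 680.4 CPM with PBS and 1545, 1724 and 1672 CPM with soluble OVA (1.18 ± 0.09 log2, edgeR adjusted p = 9e-05). *Aurka*, a spindle kinase, was 25.1, 20.4 and 23.5 CPM and 56.2, 59.3 and 58.6 CPM (1.35 ± 0.09 log2, edgeR adjusted p = 8.22e-05), and *Tpx2*, which activates it, rose by 1.12 on the log2 scale (edgeR adjusted p = 8.22e-05). The values of these genes varied little within a group, and no soluble OVA library came near a PBS library. *Cdc6*, which loads the replicative helicase, was 28.5, 25.7 and 22.1 CPM with PBS and 57.3, 61.1 and 65.4 CPM with soluble OVA (1.28 ± 0.11 log2, edgeR adjusted p = 9.16e-05). *Cdc45* and *Prim1* rose by 1.13 and 0.89 on the log2 scale (edgeR adjusted p = 9.11e-05 and 9.16e-05). With any 1 library left out, 25 or 26 mitosis genes and 25 S phase genes were called higher.

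Genes of G1 control moved in both directions. The activators *E2f1* and *E2f2* rose by 1.18 and 1.07 on the log2 scale, and the cyclin *Ccnd3*, which dark zone cells use, was 207, 172 and 186 CPM with PBS and 331, 326 and 339.9 CPM with soluble OVA (0.84 ± 0.08 log2; edgeR adjusted p = 8.22e-05, 0.000138 and 0.000135). The inhibitor *Cdkn1b*, encoding p27, which holds resting cells out of the cycle, fell from 113, 146 and 120.0 CPM to 50.4, 48.7 and 55.1 CPM (−1.28 ± 0.11 log2, edgeR adjusted p = 9.16e-05). *Myc*, which light zone cells express on T cell help, was 118, 193 and 153 CPM with PBS and 91.5, 75 and 73.5 CPM with soluble OVA (−0.93 ± 0.20 log2, edgeR adjusted p = 0.0181), a call lost without PBS replicate 3, soluble OVA replicate 2 or soluble OVA replicate 3. Of the 13 tested genes of this list, 7 were called higher and 5 lower, the latter being 2 without PBS replicate 3, 3 without soluble OVA replicate 2 and 2 without soluble OVA replicate 3. Replication-dependent histones, most of whose transcripts lack a poly(A) tail and are poorly captured by poly(A) selection, gave 5 higher and 2 lower calls of 50 tested (median 0.20 log2), with 1 lower call when any library other than soluble OVA replicate 2 was left out. The shares of 10% higher and 4% lower were under the 13.5% and 13.9% of all genes tested.

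Because the mitotic genes moved together, their promoters were read in RefSeq windows (GRCm38.p6, 250 bases before to 50 after the start). The cell cycle homology element TTTGAA, through which mitotic genes are held silent in resting cells, occurred on either strand in 16 of the 22 mitosis genes with a window, against 20.2% of all 27025 genes with one. The CCAAT box, bound by NF-Y, occurred in 18 of the 22, against 41.1% of all genes. For S phase genes the E2F-like letters TTTNGCGC occurred in 8 of 21, against 1.57%. In the stretches shown no motif overlaps another, and a match is a description of letters, not of binding. Shown are the last 150 bases before the start, on the gene's own strand, for called members of each list, 3 for mitosis and 2 for S phase, with the smallest p that had the list's element there and a single window, with TTTGAA and CCAAT in capitals, or, for *Pola1* and *Mcm5*, the E2F-like letters, which both genes hold on the other strand. In *Cdk1* the CCAAT boxes are also on the other strand.
Cdc20, chr4:118437344-118437493, minus strand: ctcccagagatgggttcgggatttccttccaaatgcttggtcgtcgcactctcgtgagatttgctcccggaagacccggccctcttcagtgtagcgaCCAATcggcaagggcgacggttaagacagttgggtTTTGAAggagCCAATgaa
Mki67, chr7:135716380-135716529, minus strand: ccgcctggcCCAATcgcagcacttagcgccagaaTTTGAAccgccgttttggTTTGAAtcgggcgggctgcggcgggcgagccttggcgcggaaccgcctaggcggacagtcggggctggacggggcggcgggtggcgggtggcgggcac
Cdk1, chr10:69352913-69353062, minus strand: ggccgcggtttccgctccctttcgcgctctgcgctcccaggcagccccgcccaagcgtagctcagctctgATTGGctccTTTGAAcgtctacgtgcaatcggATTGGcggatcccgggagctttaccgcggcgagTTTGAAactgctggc
Pola1, chrX:93632156-93632305, minus strand: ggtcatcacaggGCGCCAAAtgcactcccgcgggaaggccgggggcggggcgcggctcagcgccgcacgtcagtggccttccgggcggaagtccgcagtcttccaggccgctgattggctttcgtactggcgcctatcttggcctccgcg
Mcm5, chr8:75109359-75109508, plus strand: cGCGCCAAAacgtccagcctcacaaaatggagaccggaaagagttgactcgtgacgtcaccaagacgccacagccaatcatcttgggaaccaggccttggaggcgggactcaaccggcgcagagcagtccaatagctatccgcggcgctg
*Cdc20*, the activator of the anaphase-promoting complex, was 106, 92.3 and 91.8 CPM with PBS and 199, 215 and 202 CPM with soluble OVA (1.11 ± 0.08 log2, edgeR adjusted p = 8.22e-05). *Cdk1*, *Pola1* and *Mcm5*, and *Bcl3* further on, are named through this promoter rule. *Cdk1*, the mitotic kinase, was 49, 41.4 and 41.5 CPM and 89, 90.8 and 86.5 CPM (1.03 ± 0.09 log2, edgeR adjusted p = 9.16e-05). *Pola1*, a subunit of the polymerase that starts DNA strands, and *Mcm5*, of the replicative helicase, rose by 1.12 and 0.89 on the log2 scale (edgeR adjusted p = 0.000126 and 0.000138).

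Genes of cell activation went down. Of 23 immediate-early genes, whose transcripts appear within minutes of receptor signaling or tissue handling, 17 were called lower and 1 higher (median −1.16 log2). *Nr4a1*, encoding Nur77, which antigen receptor signals induce, was 558, 1162 and 573 CPM with PBS and 222, 98 and 107 CPM with soluble OVA (−2.41 ± 0.53 log2, edgeR adjusted p = 0.034). PBS replicate 2 stood highest and soluble OVA replicate 1 highest in its group, and the call was lost when PBS replicate 1, 2 or 3 or soluble OVA replicate 2 or 3 was left out. *Ier5* was 407, 499.9 and 499.6 CPM and 233, 205 and 183 CPM (−1.16 ± 0.12 log2, edgeR adjusted p = 0.000212), and *Ier2* fell by 1.44 on the log2 scale (edgeR adjusted p = 0.000803). The mRNA-decay factor *Zfp36* fell by 0.81, and *Gadd45b* was the exception, rising by 0.84 (edgeR adjusted p = 0.00215 and 0.000954). The list's lower calls numbered 11 without PBS replicate 2, 10 without PBS replicate 3, 9 without soluble OVA replicate 2 and 9 without soluble OVA replicate 3. How much of these levels arose during digestion and isolation was not tested.

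Light zone and activation genes gave 0 higher and 10 lower calls of 17 (median −0.71 log2), and 7 to 10 lower calls with any 1 library left out. *Cd83*, which germinal center cells bear in the light zone, was 829, 1135 and 809 CPM with PBS and 439.5, 309.8 and 341 CPM with soluble OVA (−1.33 ± 0.19 log2, edgeR adjusted p = 0.00393). *Cd40*, the receptor for T cell help, was 106, 105 and 112 CPM and 74.3, 62.1 and 69.3 CPM (−0.63 ± 0.08 log2, edgeR adjusted p = 0.000519). The chemokine gene *Ccl4* fell by 2.21 on the log2 scale, *Ccl22* by 0.90 and the amino acid oxidase *Il4i1* by 0.91 (edgeR adjusted p = 0.00133, 0.00277 and 0.000847). *Cd86*, a costimulatory ligand listed with them, was 50.1, 58.5 and 46.1 CPM and 68.4, 56.5 and 64.8 CPM and was not called (0.31 ± 0.11 log2, edgeR adjusted p = 0.0638). *Cd86* was called higher without PBS replicate 2 or soluble OVA replicate 2 and under 3 other filters on low counts.

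NF-kB targets and feedback inhibitors gave 12 lower calls of 17 and 0 higher (median −0.72 log2), *Cd83* among them. *Nfkbia*, the inhibitor that NF-kB itself induces, was 179.6, 179.6 and 183 CPM with PBS and 105, 94.4 and 109 CPM with soluble OVA (−0.80 ± 0.07 log2, edgeR adjusted p = 0.000109). The subunit genes *Nfkb2* and *Relb* fell by 0.75 and 0.64 on the log2 scale (edgeR adjusted p = 0.0002 and 0.000728). A kB-like stretch, GGGNNTTCC on either strand, lay in 7 of the 13 listed genes with a RefSeq window, against 6.58% of all genes with one. The called members with the smallest p that had it in the last 150 bases before the start and a single window are shown, the stretch in capitals (in *Bcl3* it is read on the other strand).
Nfkbie, chr17:45555550-45555699, plus strand: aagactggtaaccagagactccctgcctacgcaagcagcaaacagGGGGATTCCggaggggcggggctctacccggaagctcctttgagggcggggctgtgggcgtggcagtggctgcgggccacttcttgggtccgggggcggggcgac
Bcl3, chr7:19822756-19822905, minus strand: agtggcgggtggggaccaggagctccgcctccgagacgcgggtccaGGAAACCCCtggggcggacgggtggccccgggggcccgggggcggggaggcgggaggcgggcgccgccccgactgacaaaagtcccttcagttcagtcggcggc
*Nfkbie*, another inhibitor, was 116, 119 and 103 CPM with PBS and 74.9, 61.2 and 67 CPM with soluble OVA (−0.72 ± 0.10 log2, edgeR adjusted p = 0.000788), and *Bcl3*, a nuclear cofactor, was 43.1, 47.8 and 50.2 CPM and 34, 30.4 and 37.1 CPM (−0.46 ± 0.09 log2, edgeR adjusted p = 0.00638).

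Antigen presentation genes were lower. Of 13 genes of MHC class II presentation, 11 were called lower and 0 higher (median −0.65 log2), with 8 to 12 lower calls when any 1 library was left out. *Ciita*, the master coactivator of these genes (chr16:10480059-10528418), was 858, 957 and 939 CPM with PBS and 627, 518 and 547 CPM with soluble OVA (−0.68 ± 0.09 log2, edgeR adjusted p = 0.000721). *Ctss*, the protease that trims the invariant chain, fell by 0.68 on the log2 scale (edgeR adjusted p = 0.00027). The Y box of class II promoters is a CCAAT sequence on the other strand, and CCAAT lay in 8 of the 10 genes with a window, against 41.1% of all genes. It is in capitals, as read from the other strand, in the last 150 bases before the start of the genes chosen by the rule given above.
H2-DMb2, chr17:34145099-34145248, plus strand: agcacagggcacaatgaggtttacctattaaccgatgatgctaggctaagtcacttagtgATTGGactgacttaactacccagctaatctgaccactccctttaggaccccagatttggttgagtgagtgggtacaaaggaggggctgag
H2-Oa, chr17:34092229-34092378, plus strand: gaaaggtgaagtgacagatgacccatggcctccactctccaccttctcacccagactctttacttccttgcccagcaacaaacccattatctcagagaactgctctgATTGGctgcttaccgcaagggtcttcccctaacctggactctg
*H2-DMb2*, part of the peptide loader, was 886, 879 and 945 CPM with PBS and 626, 521 and 543 CPM with soluble OVA (−0.66 ± 0.08 log2, edgeR adjusted p = 0.00058), and *H2-Oa*, of the loader's inhibitor, was 175, 162 and 187 CPM and 113, 87.9 and 88.4 CPM (−0.84 ± 0.11 log2, edgeR adjusted p = 0.000657). For class I, 6 of 11 genes were called lower and 0 higher (median −0.30 log2), among them *H2-K1* (−0.74 log2), *H2-D1* (−0.70) and *B2m* (−0.59; edgeR adjusted p = 0.000165, 0.000138 and 0.000571).

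Interferon-linked genes leaned the same way with fewer calls. The GTPases induced by interferon gamma gave 9 lower and 0 higher calls of 15 (median −0.70 log2), *Gbp4*, the member with the smallest p, being at 77.9, 91.6 and 84.5 CPM with PBS and 40.9, 33.9 and 47.9 CPM with soluble OVA (−1.03 ± 0.12 log2, edgeR adjusted p = 0.000466). These GTPases gave 6 to 8 lower calls when any 1 library was left out (medians −0.66 to −0.49 log2) and 11 with all 18 libraries. Their regulator *Irf1* fell by 0.52 on the log2 scale (edgeR adjusted p = 0.00117). Of 30 antiviral genes, 6 were called lower, a share of 20% beside the 13.9% of all genes, and 0 higher (median −0.55 log2). The RNA sensor *Ddx58* was 69, 101 and 72.1 CPM and 34.4, 34.4 and 47.2 CPM (−1.04 ± 0.19 log2, edgeR adjusted p = 0.00944), and *Xaf1* fell by 1.16 on the log2 scale (edgeR adjusted p = 0.00239). The antiviral count was 3 without PBS replicate 2, 3 without soluble OVA replicate 1 and 2 without soluble OVA replicate 2, and in the other direction 9 by DESeq2, 11 with all 18 libraries and 12 without a count filter. Genes of the IL-4 receptor and its STAT6 response gave 7 lower and 0 higher calls of 14 (median −0.29 log2). *Il4ra* was 229.6, 227 and 221 CPM with PBS and 156, 121 and 122 CPM with soluble OVA (−0.74 ± 0.11 log2, edgeR adjusted p = 0.00104), and the shared gamma chain *Il2rg* fell by 0.93 on the log2 scale (edgeR adjusted p = 0.000206).

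Of 19 chemokine receptor and homing genes, 13 were called lower and 1, *S1pr2*, higher (median −0.53 log2). *Itgb7*, the integrin chain for gut homing, was 174, 174 and 175 CPM with PBS and 77.9, 59.6 and 68.9 CPM with soluble OVA (−1.32 ± 0.10 log2, edgeR adjusted p = 8.22e-05). *Ccr6*, which guides B cells to the patch epithelium for IgA switching, was 78.8, 101 and 80.9 CPM and 42.7, 35.3 and 38 CPM (−1.15 ± 0.12 log2, edgeR adjusted p = 0.000231). *Cxcr4* of dark zone cells fell by 0.48 on the log2 scale, and *Cxcr5* of follicular cells by 0.77 (edgeR adjusted p = 0.0141 and 0.0402), calls that were lost when PBS replicate 2 or 3 or soluble OVA replicate 3 was left out, and for *Cxcr5* also without PBS replicate 1 or soluble OVA replicate 2. The list's lower calls numbered 8 without PBS replicate 2, 8 without PBS replicate 3, 7 without soluble OVA replicate 2 and 7 without soluble OVA replicate 3. Among survival genes, 6 of 13 were called lower and 1 higher, or 2 higher without PBS replicate 1 (median −0.19 log2). *Bcl2*, which germinal center cells lack, was 93.8, 108 and 105 CPM with PBS and 47.5, 42.3 and 51.3 CPM with soluble OVA (−1.10 ± 0.09 log2, edgeR adjusted p = 9.02e-05), and *Bcl2a1b*, which has near-identical copies, fell by 0.71 on the log2 scale (edgeR adjusted p = 0.00513). B cell receptor signaling genes gave 2 higher and 4 lower calls of 19 (median −0.06 log2). These shares were 10.5% and 21.1%, beside 13.5% and 13.9% of all genes tested. The higher calls were *Blnk* and *Syk*, by 0.41 and 0.34 on the log2 scale (edgeR adjusted p = 0.00483 and 0.0209). *Malt1* and *Cd72* had log2 fold changes of −0.67 and −0.49 (edgeR adjusted p = 0.0131 and 0.00922), calls lost without soluble OVA replicate 2 or 3 and, for *Cd72*, also without PBS replicate 2 or 3. Lower calls in that list ranged from 0 to 4 when 1 library was left out, with 0 without soluble OVA replicate 2 or 3, 1 without PBS replicate 2 or 3 and 2 without PBS replicate 1, and the *Syk* call was lost without PBS replicate 1 or 3.

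Plasma cell genes showed 6 higher and 1 lower call of 14 tested (median 0.28 log2). *Mzb1*, a chaperone of antibody assembly, was 126, 107 and 121 CPM with PBS and 196, 169.9 and 166 CPM with soluble OVA (0.61 ± 0.09 log2, edgeR adjusted p = 0.00131). *Jchain*, which joins IgA and IgM units, was 563, 479 and 486 CPM and 644, 671 and 609 CPM (0.35 ± 0.09 log2, edgeR adjusted p = 0.0149). The defining plasma cell genes did not pass the test, with log2 fold changes of 0.01 ± 0.18 for *Sdc1*, −0.18 ± 0.20 for *Prdm1* and −0.04 ± 0.08 for *Xbp1* (edgeR adjusted p = 0.984, 0.547 and 0.762). *Irf4*, which activated B cells also express, fell from 297, 445 and 322 CPM to 177, 122 and 128 CPM (−1.30 ± 0.23 log2, edgeR adjusted p = 0.01). Endoplasmic reticulum folding genes gave 7 higher and 2 lower calls of 23 (median 0.16 log2), and *Sdf2l1*, a folding cofactor, rose by 0.74 on the log2 scale (edgeR adjusted p = 0.0014). Without soluble OVA replicate 3, the lower calls in that list numbered 0, and they numbered 1 without PBS replicate 2, PBS replicate 3 or soluble OVA replicate 2.

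Growth and energy genes rose by smaller amounts. Of 76 nuclear-encoded oxidative phosphorylation genes, 49 were called higher and 0 lower (median 0.38 log2). The 49 became 33 without PBS replicate 1, 57 without PBS replicate 3 and 33 with the replicate number as a block. *Ndufc2*, of complex I, was 25.5, 23.8 and 26.1 CPM with PBS and 37.1, 40.4 and 40.4 CPM with soluble OVA (0.66 ± 0.08 log2, edgeR adjusted p = 0.000476). The 13 mitochondrially encoded mRNAs gave 0 calls (edgeR, 2 with an unadjusted p under 0.05, median −0.23 log2), against 3 lower calls by DESeq2 and 5 lower calls without PBS replicate 2. Mitochondrial ribosomal proteins gave 37 higher and 0 lower calls of 77 (median 0.30 log2) and proteasome subunits 28 and 0 of 38 (median 0.35 log2), *Psmd14* rising by 0.60 and *Mrpl18* by 0.77 on the log2 scale (edgeR adjusted p = 0.000412 and 0.000133). Leaving out any 1 library gave 27 to 34 higher calls for mitochondrial ribosomal proteins and 26 to 31 for proteasome subunits. The block gave 22 and 26. Cytosolic ribosomal proteins gave 12 higher calls of 84, close to the 13.5% of all genes, and 0 lower (median 0.16 log2). That count was 6 without PBS replicate 1, 27 without PBS replicate 3 and 19 without soluble OVA replicate 3.

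Serine and folate enzymes, which supply one-carbon units for nucleotide synthesis, gave 7 higher and 1 lower call of 10 (median 0.40 log2), the lower call being lost without PBS replicate 1 or 2 or soluble OVA replicate 1, 2 or 3. *Psat1* was 67.5, 52.5 and 52.7 CPM with PBS and 125, 120.2 and 111 CPM with soluble OVA (1.06 ± 0.11 log2, edgeR adjusted p = 0.000222), and *Mthfd2* was 40.8, 38.5 and 33.2 CPM and 70.0, 66.9 and 71.2 CPM (0.91 ± 0.09 log2, edgeR adjusted p = 0.0002). Of 18 heat shock genes, 11 were called higher and 0 lower (median 0.44 log2), *Hsph1* by 0.82 on the log2 scale (edgeR adjusted p = 0.000159). In glycolysis the split was 8 higher and 3 lower of 20 (median 0.33 log2). The enzyme gene *Pgk1* was 183, 158 and 185 CPM and 271, 291 and 277 CPM (0.70 ± 0.08 log2, edgeR adjusted p = 0.000285), while the glucose transporter *Slc2a3* fell by 1.01 on the log2 scale (edgeR adjusted p = 0.000142). The 3 lower calls became 1 without soluble OVA replicate 3. Cholesterol synthesis genes had a median of 0.00 log2, with 1 higher and 6 lower calls of 20. *Insig1*, which restrains sterol synthesis, was 88.8, 88.2 and 82.3 CPM with PBS and 63.2, 57.5 and 52.2 CPM with soluble OVA (−0.56 ± 0.09 log2, edgeR adjusted p = 0.002). The 6 lower calls in this list were reduced to 2 or 3 by leaving out any single library (2 without PBS replicate 1 or soluble OVA replicate 2 or 3, otherwise 3). The higher calls numbered 2 without PBS replicate 1 and 0 without PBS replicate 2 or soluble OVA replicate 3.

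**Figure D3:**
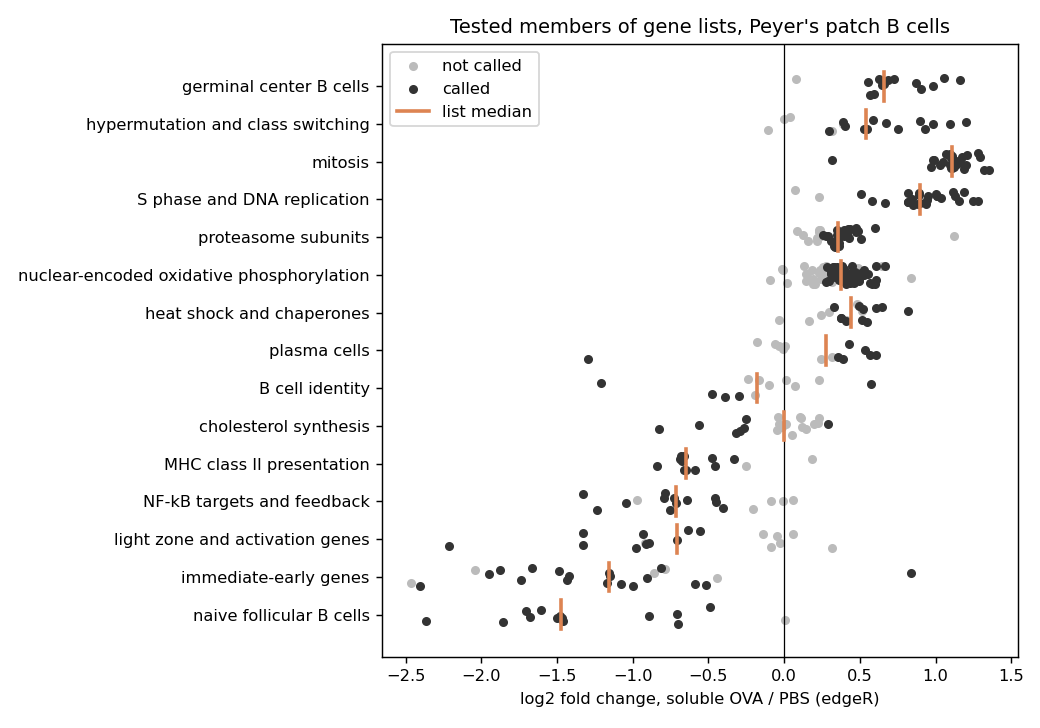
Log2 fold change (soluble OVA over PBS, edgeR) of each tested member of 15 gene lists in Peyer's patch B cells, black where called and grey where not, with the list median as an orange bar. Medians run from 1.11 for mitosis and 0.66 for germinal center genes to −1.16 for immediate-early and −1.47 for naive follicular genes, beside −0.02 over all genes tested.

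Regulatory B cell genes were those that the study names in its text, which are part of its sets and were chosen on the splenic OVA NP and PBS libraries, so they are neither complete nor independent. Of 8 named genes of IL-10-producing B10 cells linked there to OVA NP, 5 were called higher here and 1 lower (median 0.63 log2), the lower call being lost without PBS replicate 1, 2 or 3 or soluble OVA replicate 1 or 2. *Nt5e*, encoding the adenosine-forming enzyme CD73, was 42.2, 40.1 and 40.6 CPM with PBS and 85.4, 75.4 and 80.2 CPM with soluble OVA (0.99 ± 0.07 log2, edgeR adjusted p = 8.22e-05). *Zbtb32* was 7.5, 6.42 and 9.72 CPM and 18.4, 17.3 and 18.7 CPM (1.22 ± 0.16 log2, edgeR adjusted p = 0.000655), while *Lipc*, also listed among germinal center genes, and *Zdhhc2* rose by 0.87 and 0.73 on the log2 scale (edgeR adjusted p = 0.00149 and 0.000844). Of 12 named meta-analysis genes 7 were called higher and 0 lower (median 0.52 log2), including *Anxa2* (1.19 ± 0.11 log2, edgeR adjusted p = 0.000132) and *Lgals1* (1.01 ± 0.16 log2, edgeR adjusted p = 0.00166). Of 5 named genes shared across organs 2 were higher and 1 lower (median 0.24 log2). The higher calls numbered 1 without PBS replicate 1 or soluble OVA replicate 1 or 2, and the lower calls 0 without PBS replicate 2 or 3 or soluble OVA replicate 2 or 3. Of 12 named B10 genes linked to PBS, 1 was higher (2 without PBS replicate 2) and 5 lower (median −0.56 log2). *Il10* itself was low, at 0.615, 0.635 and 0.26 CPM with PBS and 0.566, 0.564 and 1.07 CPM with soluble OVA (0.55 ± 0.54 log2, edgeR adjusted p = 0.495), so no difference was detectable at this depth. A list of memory and B-1 genes split, with 4 higher and 5 lower calls of 14 (median −0.47 log2), and *Vim* fell by 0.83 on the log2 scale (edgeR adjusted p = 0.0003). Its lower calls numbered 3 without PBS replicate 1 or 2 and 2 without soluble OVA replicate 2.

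Beyond *Ighg2b*, the largest increases among called genes with a mean of at least 1 CPM lay in genes of low level. That mean was taken over the libraries of both groups, so a gene barely counted in either group could pass through the other alone. Ranking by fold change under this rule favors such genes. *Dgkg*, a diacylglycerol kinase, was 0.328, 0.0705 and 0.104 CPM with PBS and 2.5, 1.99 and 2.84 CPM with soluble OVA (3.72 ± 0.53 log2, edgeR adjusted p = 0.00105), from 8, 1 and 2 counts to 75, 53 and 69. *Krt222* was 7.96, 7.83 and 7.64 CPM and 26.2, 26.3 and 26.4 CPM (1.77 ± 0.10 log2, edgeR adjusted p = 8.22e-05). *Rell1* was 10.1, 7.05 and 6.03 CPM and 30.8, 22.2 and 20.3 CPM (1.68 ± 0.24 log2, edgeR adjusted p = 0.00183). *Tubb3*, *Ccdc190*, *Foxo6*, *Ccnb1ip1* and *Pla2g4c* rose by 3.10, 2.96, 2.58, 2.17 and 2.07 on the log2 scale (edgeR adjusted p = 0.00201, 0.000252, 0.00347, 0.00293 and 0.00307). For *Rell1*, *Krt222*, *Dgkg*, *Ccdc190* and *Tubb3*, no alternative setting removed the call.

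Among the decreases of the same rule, the membrane protein gene *Emp2* was at 38.3, 23.2 and 34.1 CPM with PBS and 4.19, 6.84 and 5.4 CPM with soluble OVA (−2.52 ± 0.24 log2, edgeR adjusted p = 0.0003). *Plk2* and *Zbtb10* fell by 2.78 and 2.51 on the log2 scale with PBS replicate 2 highest, at 37.8, 89.9 and 44.3 CPM and 36.6, 84.5 and 29.9 CPM in the PBS libraries (edgeR adjusted p = 0.0366 and 0.0423). Both calls were lost without PBS replicate 1, 2 or 3 or soluble OVA replicate 2 or 3, and that of *Zbtb10* also without soluble OVA replicate 1. *Sfrp1*, *Mmp12*, *Loxl1*, *Slit3*, *Adamts1*, *Upk3b* and *Cxcl1*, genes known from connective tissue, vessels, mesothelium or macrophages, had log2 fold changes of −2.45, −2.59, −2.38, −3.73, −2.77, −2.48 and −2.63 (edgeR adjusted p = 0.00413, 0.00412, 0.0118, 0.0224, 0.033, 0.0414 and 0.0127). *Sfrp1*, a secreted Wnt inhibitor, was 5.21, 2.12 and 2.39 CPM with PBS and 0.765, 0.451 and 0.536 CPM with soluble OVA. Except for *Sfrp1* and *Mmp12*, each of these calls was lost without PBS replicate 1. Some were also lost without other libraries: *Adamts1* without PBS replicate 2 or any 1 soluble OVA library, *Slit3* without soluble OVA replicate 2 or 3, *Upk3b* without PBS replicate 3 or soluble OVA replicate 2 or 3, and *Cxcl1* without soluble OVA replicate 3. *Usp17la*, one of a family of near-identical genes, was 2.99, 1.34 and 3.01 CPM with PBS and 0, 0.188 and 0.124 CPM with soluble OVA (−4.52 ± 0.74 log2, edgeR adjusted p = 0.00215).

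Markers of other cells were present at low to moderate levels, and the summed levels of some types lay apart between the groups. The share called lower was 8.33% for T cell and 10% for monocyte and macrophage markers, under the 13.9% of all genes tested. It was 20% for NK cell and 42.9% for stromal markers. The share of mast cell, basophil and eosinophil markers called higher was 28.6%, beside 13.5% of all genes. Stroma and follicular dendritic cell genes gave 3 lower calls of 7 tested (median −1.56 log2), with a summed level of 30.3 to 53.5 CPM with soluble OVA and 83.5 to 167 CPM with PBS. *Cxcl13*, the follicular chemoattractant, was 5.86, 8.68 and 8.83 CPM with PBS and 2.63, 1.77 and 4.66 CPM with soluble OVA (−1.35 ± 0.35 log2, edgeR adjusted p = 0.0191), and *Dcn* and *Clu* fell by 2.06 and 1.27 on the log2 scale (edgeR adjusted p = 0.034 and 0.0333). The 3 stromal calls became 0 without soluble OVA replicate 1, 1 without soluble OVA replicate 2 and 1 without PBS replicate 2, and numbered 5 by DESeq2. The *Clu* call was also lost without PBS replicate 1 or 3, and the *Cxcl13* call without PBS replicate 3. T cell markers summed to 18.3 to 24.965 CPM with soluble OVA and 27.3 to 37.3 CPM with PBS, with 1 lower call of 12 (*Icos*, −0.94 log2, edgeR adjusted p = 0.0464, lost in all leave-one-out fits except the one without soluble OVA replicate 1). NK cell markers gave 1 lower call of 5 (*Prf1*, −1.24 log2, edgeR adjusted p = 0.0152, lost without PBS replicate 3 or soluble OVA replicate 3) and summed to 14.0 to 21.5 CPM against 22.3 to 25.6 CPM.

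Monocyte and macrophage markers summed to 110.5 to 125 CPM with soluble OVA and 133 to 194 CPM with PBS, with 1 lower call of 10 (*Lyz2*, −0.41 log2, edgeR adjusted p = 0.0235, kept in leave-one-out fits only without PBS replicate 2). The summed level of mast cell, basophil and eosinophil markers was 21.1 to 44.5 CPM with PBS and 68.8 to 154 CPM with soluble OVA. Of 7 tested, 2 were called higher, *Cpa3* and *Ms4a2*, and leave-one-out fits gave 0 or 1 higher calls. Fitted changes were above 0 for 5 of the 7 and ran from −1.24 to 2.40 log2. The called genes made up a small part of the sum. *Cpa3*, a mast cell protease, was 1.76, 0.987 and 2.96 CPM with PBS and 3.29, 4.06 and 7.13 CPM with soluble OVA (1.35 ± 0.43 log2, edgeR adjusted p = 0.0435), and *Ms4a2*, a chain of the high-affinity IgE receptor, was 0.492, 0 and 0.416 CPM and 1.36, 0.94 and 2.88 CPM (2.40 ± 0.76 log2, edgeR adjusted p = 0.0453). The mucosal mast cell protease *Mcpt2*, not on the list but among the largest increases, was 13.3, 11.4 and 18.2 CPM and 28.5, 34.2 and 71.2 CPM (1.65 ± 0.42 log2, edgeR adjusted p = 0.0424). The *Cpa3* call was lost without PBS replicate 1 or 2 or soluble OVA replicate 2 or 3, the *Ms4a2* call without PBS replicate 1 or 3 or soluble OVA replicate 1 or 3, and the *Mcpt2* call without PBS replicate 1, 2 or 3 or soluble OVA replicate 2. Absorptive epithelial markers were the highest and spread most, at 708 to 3066 CPM with soluble OVA and 527 to 1935 CPM with PBS, with 0 calls of 11 by edgeR (0 at an unadjusted p under 0.05) and by DESeq2. Dendritic cell, secretory epithelial and endothelial markers gave 0 calls of 8, 9 and 7 by edgeR (2, 0 and 1 at an unadjusted p under 0.05), and 0 by DESeq2. Without PBS replicate 2, 1 dendritic cell and 2 endothelial markers were called lower, and without PBS replicate 1, 1 dendritic cell marker was called higher. The part of these cells in the results above was not tested.

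**Figure D4:**
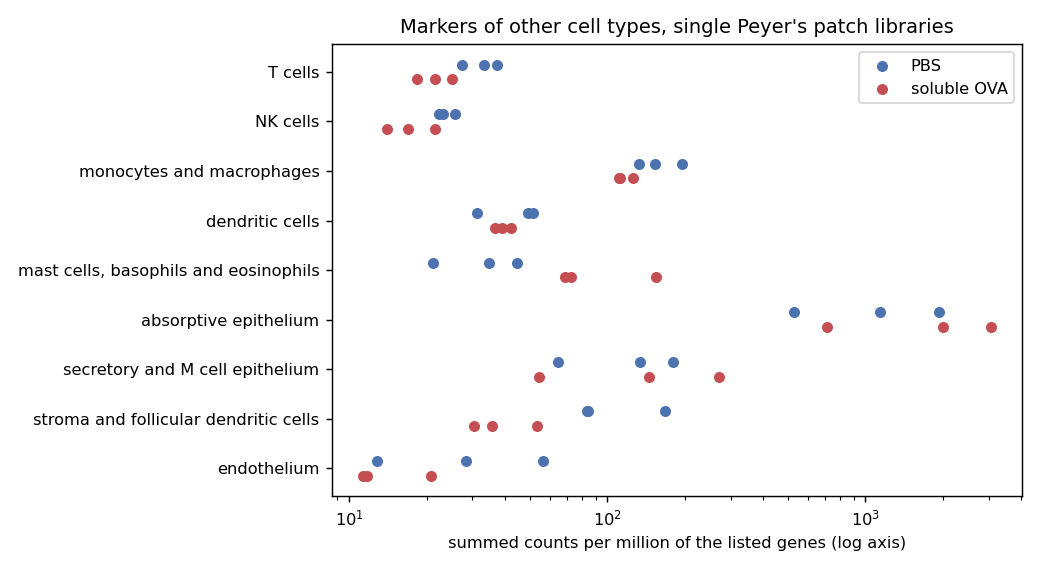
Summed CPM (log axis) of the marker genes of 9 other cell types in single Peyer's patch libraries, blue for PBS and red for soluble OVA. T cell, NK cell, monocyte and stromal sums lie lower in every soluble OVA library and mast cell sums higher, and epithelial sums, up to 3066 CPM, overlap.

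The same treatments were measured in splenic B cells, in libraries that the Peyer's patch comparison does not share. There 2428 of 14128 genes (17.2%) were called, 1479 higher and 949 lower. Of 4119 Peyer's patch DEGs tested in both tissues, 1633 (39.6%) were also called in spleen, which is 68.2% of the 2394 splenic DEGs tested in both, and 1558 of the shared DEGs had the same direction. The tissue by treatment interaction, which tests the difference itself, was called for 1131 of 16541 genes (6.84%, adjusted p under 0.05), with the response lower in Peyer's patch for 838 and higher for 293. That count was 655 without splenic PBS replicate 1, 700 without splenic PBS replicate 2 and 1816 by DESeq2. The labels do not say whether Peyer's patch and splenic libraries came from the same mice, and the interaction test took them as independent.

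Division genes rose in both tissues, with all 26 mitosis genes called higher in spleen too (median 1.503 log2), and the interaction was called for 4 of 26. Germinal center genes rose in both, but the splenic median of 2.99 log2 was higher than the 0.66 log2 of the Peyer's patch, and the interaction was called for 10 of 15. *S1pr2* was 3.98, 3.46 and 12.1 CPM with PBS and 57.5, 42.1 and 52.4 CPM with soluble OVA in spleen, far under its Peyer's patch levels, and its responses differed by −2.35 ± 0.49 log2 (edgeR adjusted p = 0.0244). The naive follicular list fell further in Peyer's patch than in spleen (splenic median −0.25 log2), with the interaction called for 11 of 14, and *Fcer2a* differed by −1.36 log2 (edgeR adjusted p = 9.06e-05).

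MHC class II genes fell in Peyer's patch and not in spleen, where 1 of 13 was called higher and 0 lower (median 0.12 log2), and the interaction was called for 12 of 13. *Ciita* was 705, 752 and 832 CPM with PBS and 857, 983 and 931 CPM with soluble OVA in spleen, and the responses differed by −0.97 ± 0.13 log2 (edgeR adjusted p = 0.000315). Cholesterol synthesis genes rose in spleen (18 of 20 called higher, median 0.53 log2), and the interaction was called for 11 of 20, *Insig1* differing by −1.10 log2 (edgeR adjusted p = 0.000169). *Cd83* and *Il4i1* fell in Peyer's patch and rose in spleen, by 1.26 and 1.08 on the log2 scale there (edgeR adjusted p = 1.11e-07 and 7.37e-07), with differences of −2.59 and −1.99 (edgeR adjusted p = 5.36e-05 and 8.57e-06).

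The IgG1 gene behaved oppositely in the tissues. Splenic *Ighg1* was 26.6, 21 and 51.7 CPM with PBS and 649, 442 and 689.6 CPM with soluble OVA (4.19 log2, edgeR adjusted p = 0.0062), whereas it fell in Peyer's patch, a difference of −6.51 ± 0.47 log2 (edgeR adjusted p = 0.000107). *Ighg2b* rose in both, from 11.1, 6.84 and 13 CPM to 33.2, 20.9 and 31.3 CPM in spleen, and more in Peyer's patch (difference 2.03 ± 0.43 log2, edgeR adjusted p = 0.0246). *Emp2* rose in spleen from 0.268, 0.0834 and 0.279 CPM to 5.89, 2.11 and 3.57 CPM and fell in Peyer's patch (difference −6.76 ± 0.60 log2, edgeR adjusted p = 7.55e-05). The smallest interaction p belonged to *Samsn1*, a signaling adaptor gene, which was 124, 131 and 128 CPM with PBS and 64.5, 59.7 and 67.4 CPM with soluble OVA in Peyer's patch and 92.3, 86.4 and 100.2 CPM and 299.8, 296 and 251 CPM in spleen (difference −2.60 ± 0.12 log2, edgeR adjusted p = 1.97e-08). *Wdfy2* and *Nfil3* were likewise lower with soluble OVA in Peyer's patch and higher in spleen, with differences of −1.93 and −3.76 log2 (edgeR adjusted p = 9.73e-08 and 1.37e-06).

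**Figure D5:**
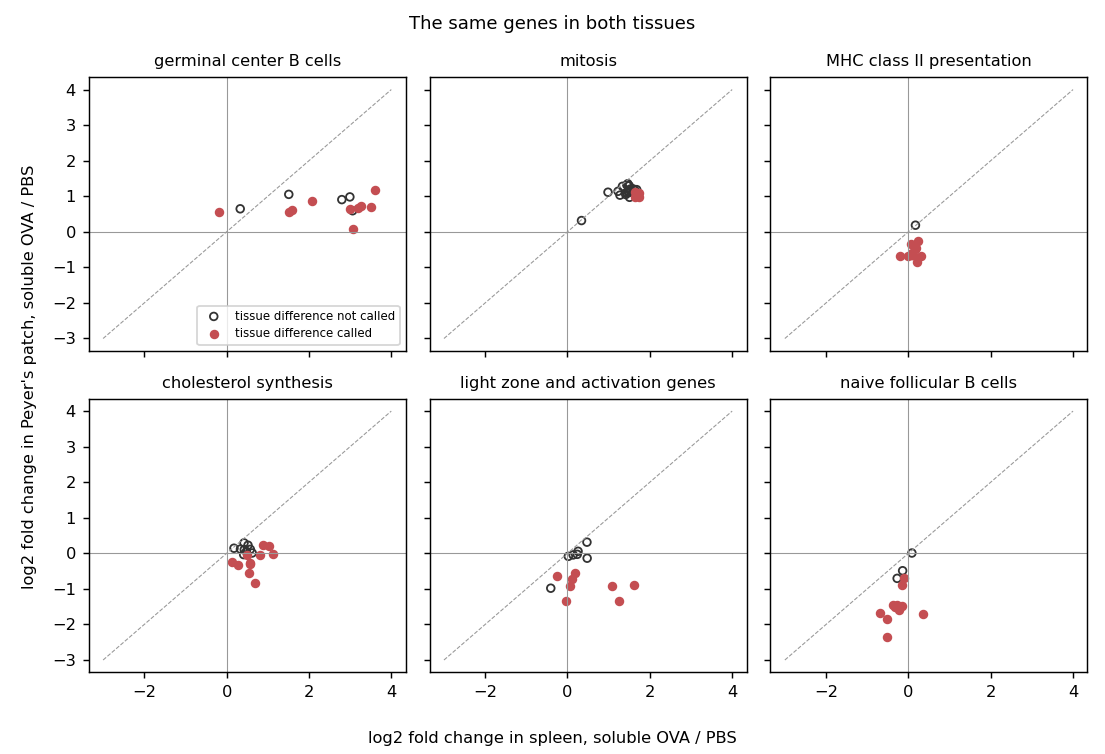
Log2 fold change of soluble OVA over PBS in spleen (x axis) and in Peyer's patch (y axis) for the members of 6 gene lists tested in both tissues, filled red where the tissue difference was called and open where it was not, with equal change as a dashed line. Germinal center genes other than *Bcl6* and *Bach2* lie right of the line, called MHC class II genes below 0 on the y axis and near 0 on the x axis, and naive follicular genes below the line.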

How the data were processed

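Peyer's patch and splenic B cell RNA was poly(A)-selected, sequenced and processed by the study. Per the labels, the submitters' processing notes and the study's methods, the authors trimmed reads with cutadapt 2.3, checked them with FastQC 0.11.8 and MultiQC 1.7, mapped them with STAR 2.7.8a to GRCm38 and estimated gene counts with RSEM 1.3.3. The deposited values are expected counts for 55491 genes, which the authors gave as whole numbers, and 3 libraries per group were used as labelled. Columns were matched to samples by library name.

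From these, edgeR 4.0.16 (R 4.3.3) gave TMM factors, default filterByExpr filtering (10 counts minimum, 15 in total) and robust quasi-likelihood F tests with Benjamini-Hochberg adjustment. The spleen was fitted alone, and the interaction over 12 libraries. The cutoffs are the study's, which used DESeq2 (1.42.0 here as an alternative). CPM are counts over the library total. At these depths 3 counts correspond to 0.0998 to 0.212 CPM per Peyer's patch library, a limit that covers counting error only. On data simulated for the Peyer's patch comparison (15753 genes), 197 of 200 genes changed by 1 log2 were recovered, with 11 false calls. The changed genes were drawn only from well-counted genes, and every gene was given the same dispersion of 0.02. The simulation therefore does not give recovery or false calls for low-count genes or for the spread of the real replicates. Replicates differed by more than sampling noise in every pair. Coordinates are from GENCODE M21 (GRCm38).

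Named genes were the 15 largest called, non-overlapping increases and decreases with a mean of at least 1 CPM (antigen receptor segments, Gm and Rik symbols left out), all heavy chain constant genes, the up to 4 members of each list with the smallest p, a set of B cell genes, and the 5 smallest interaction p. Promoter examples follow their own rule. Some genes that the rule selects are not reported here. The members and lists were chosen with earlier results of these data known. Alternatives tried were DESeq2, its size factors, other count filters, no fold cutoff, removal of immunoglobulin or mitochondrial genes, more libraries per fit, a replicate block and leaving out each library.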

Additional observations from a re-analysis of the deposited data

Results flagged for a closer look

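Flagged here are responses to soluble OVA that differed between Peyer's patch and spleen by the interaction test (edgeR, adjusted p under 0.05), in 1131 genes in all. The values are Peyer's patch minus spleen log2 fold changes. Heavy chain genes: *Ighg2b* 2.03, *Ighd* −1.31, *Ighg1* −6.51 and *Ighe* −1.99. *Ighe* was not called in Peyer's patch (0.27 log2) and rose in spleen from 2.14, 2.29 and 3.3 CPM to 14.7, 6.64 and 15.3 CPM. Surface receptors and activation genes differed by −1.36 (*Fcer2a*), −1.13 (*Ccr6*), −1.84 (*Ccr7*), −0.95 (*Fas*), −0.74 (*Cd38*), −2.59 (*Cd83*) and −0.99 (*Myc*). The regulators *Xbp1* and *Irf4* differed by −0.65 and −0.98. The genes with the smallest p were *Samsn1* (−2.60), *Wdfy2* (−1.93), *Osbpl3* (−2.26), *Nfil3* (−3.76) and *Zfp608* (−1.35). *Osbpl3* rose in both tissues, by 0.88 in Peyer's patch and 3.14 in spleen, and *Zfp608* fell in Peyer's patch from 130.4, 141 and 139 CPM to 53.8, 50.1 and 50.7 CPM with a splenic log2 fold change of −0.04.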

How the results depend on the processing

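Across the alternatives, the Peyer's patch count of 4320 stayed within 1.5 times: 4258 by DESeq2, 5071 without a count filter, 5228 with all 18 libraries and 3107 to 4073 with 1 library left out. The filter of a mean of at least 1 CPM, chosen after seeing the data, gave 4271 calls, with 1881 lower in place of 2189. Spleen counts ran from 1754 to 2907. The interaction count of 1131 became 1816 by DESeq2 and 655 to 1279 with 1 library left out, the lowest without splenic PBS replicate 1 and then 2. Between the Peyer's patch groups, replicate numbers did not pair the samples: same-numbered deviations correlated at −0.15, −0.31 and 0.13. Pairing of Peyer's patch with splenic libraries was not examined. With the replicate number as a block, 3111 genes were called (1674 higher, 1437 lower), 2265 in spleen and 893 in the interaction, and 3089 of the 4320 calls remained. Of 235 genes tested by name, 189 were called, 146 of them under every alternative, 37 lost the call in at least 1 leave-one-out fit, and 0 changed sign. For genes near 1 CPM the counts limit the fold change: *Dgkg* rests on 1 to 8 counts per PBS library.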
